A study of Mus musculus with 8 samples.

Results

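CD4+ T cells primed in tumour-bearing mice were compared with those primed in tumour-free mice, all given a control antibody. The comparison rests on 4 of the 8 arrays of the series, and its members were chosen by title alone. Replicates 1 and 2 were tumour-free mice with control antibody, and replicates 3 and 4 were mice bearing MCA-OVA, the fibrosarcoma MCA205 made to express ovalbumin (OVA), with control antibody. Replicates 5 and 6 (tumour-free) and 7 and 8 (tumour-bearing) were given an IL-6 receptor-blocking antibody (anti-IL-6R) in its place. All mice were C57BL/6. They were given OVA-specific TCR transgenic CD4+ T cells and immunised with dendritic cells carrying OVA peptide. CD4+ T cells were taken 4 days later. The labels name no transgenic line, no age and no number of mice per array, and describe no step that separates transferred cells from the CD4+ cells of the host. The series asks how IL-6 holds back Th1 cells, the helpers that make interferon-gamma, when a tumour is present.

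An activated CD4+ T cell takes on 1 of several helper programmes, each with its own transcription factors and cytokines. Th1 cells depend on T-bet and make interferon-gamma, Th2 cells depend on GATA3 and make IL-4, and follicular helper cells depend on BCL6, make IL-21 and help B cells. The factor c-Maf, encoded by Maf, drives Il4 and Il21 in several of these programmes.

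Levels are log2 signals relative to the 75th percentile of the same array, so 0 is the level of a fairly bright probe. A difference is the mean of replicates 3 and 4 minus that of 1 and 2, given ± its standard error, with n = 2 arrays on each side. Differences were tested in limma with Benjamini-Hochberg adjustment over all 21172 genes, and a gene counts as called below an adjusted p of 0.05. The share of probes well above background ran from 53.1% to 59.8%, and no spot was saturated. The first principal component (41.3% of the variance) placed replicate 3 at 51.6 and replicate 4 at 39.2, with all others from -26.7 to -1.1. Tumour-bearing and tumour-free samples lay in different rows of 1 slide, so slide position and tumour cannot be told apart. Which arrays came from the same experiment is not labelled, and p-values reflect only the spread of these samples, which may be technical. Of the genes that mark CD4+ T cells, Cd3e and Cd4 differed little between the groups. In replicates 1 to 4, Cd3e stood at 6.39, 6.28, 6.38 and 6.47, and Cd4 at 5.48, 5.34, 5.65 and 5.53. The T cell receptor alpha constant feature, another T cell marker, stood at 6.96, 6.92, 6.33 and 5.36. Its difference of -1.10 ± 0.36 did not pass (adjusted p = 0.11).

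Of the 21172 genes, 1379 (6.51%) were called: 934 were higher in tumour-bearing mice (4.41%) and 445 lower (2.10%). At least 2-fold differences were reached by 356 of the higher and 173 of the lower genes. The median difference over all genes was 0.03. The count leaned on single arrays, since it was 924 without replicate 1, 317 without replicate 2, 566 without replicate 3 and 842 without replicate 4. In all, 219 genes (187 higher, 32 lower) kept their call whichever of the 8 arrays was dropped. Among 408 called genes with several probes, all probes shared the sign for 312.

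**Figure D1:**
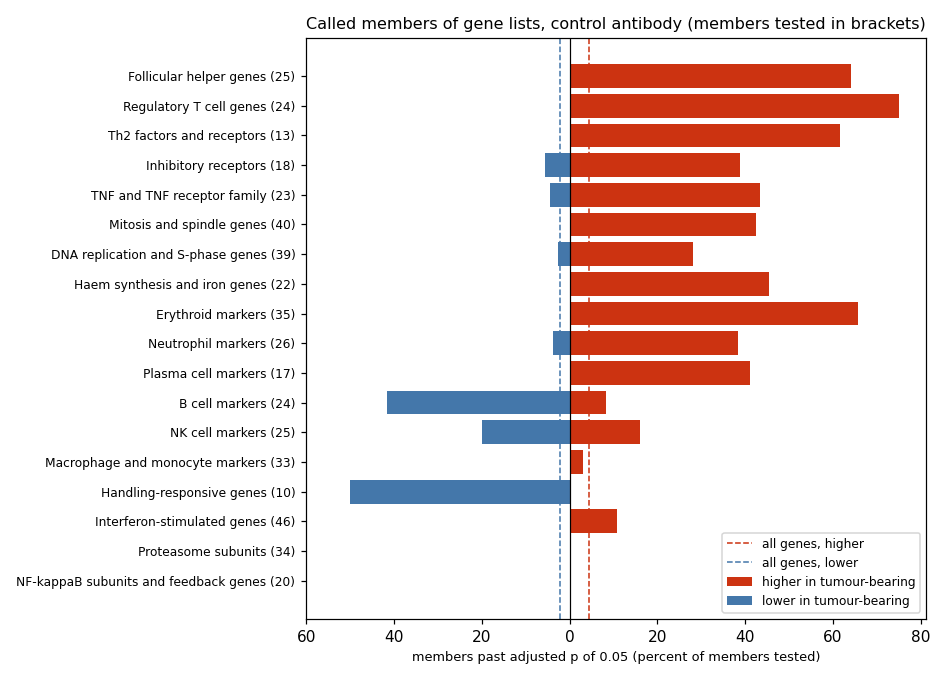
Percent of tested members called higher (right, red) or lower (left, blue) in tumour-bearing mice for 18 gene lists, with the number tested in brackets and dashed lines at the share of all genes. Regulatory, follicular helper, Th2 and erythroid lists reach furthest to the right, B cell and handling-responsive lists furthest to the left, and proteasome and NF-kappaB lists have no called member.

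Helper T cell genes that rose belonged to several programmes. Maf rose by 1.13 ± 0.09 (adjusted p = 0.0013), from 1.64 and 1.43 in tumour-free mice to 2.67 and 2.64 in tumour-bearing mice. Its 3 probes were all called in the same direction. Il21, the cytokine of follicular helper cells, stood at -2.03 and -2.70 in tumour-free mice and at 0.47 and 1.16 in tumour-bearing mice, a rise of 3.18 ± 0.30 (adjusted p = 0.0017). Il4, the cytokine that marks Th2 cells and is also made by follicular helper cells, went from -0.96 and -1.42 to 1.49 and 1.12, a rise of 2.5 ± 0.17 (adjusted p = 0.00068). For all 3 genes, both tumour-bearing arrays lay above both tumour-free arrays and the call held without any single array. The arrays of the groups did not overlap, in either direction, for 53.1% of all genes. The dimmer second probe of Il21 gave 0.58 and did not pass. Ifng, the Th1 cytokine, stood at 2.22 and 2.34 against 1.25 and 1.93, a difference of -0.69 ± 0.25 that did not pass (adjusted p = 0.14). Tbx21, the gene of T-bet, differed by 0.46 ± 0.13, which did not pass (adjusted p = 0.069).

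**Figure D2:**
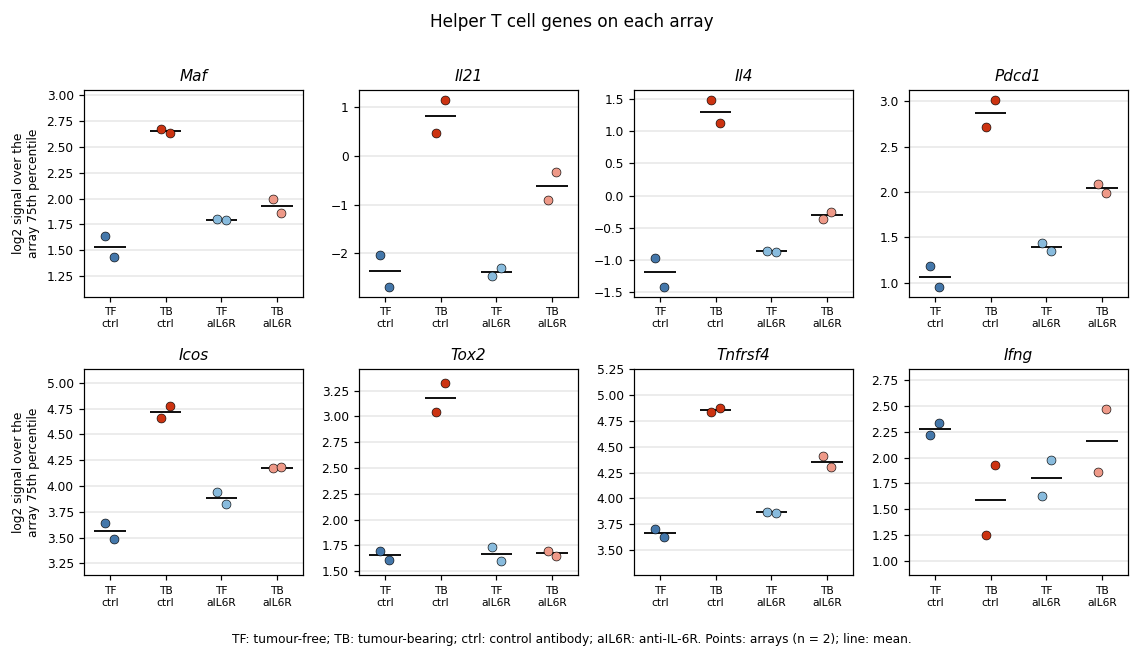
Log2 signal over the array 75th percentile for 8 helper T cell genes, with 1 point per array, 2 arrays per group and a line at the group mean; each panel has its own vertical scale. Maf, Il21, Il4, Pdcd1, Icos, Tox2 and Tnfrsf4 are highest in tumour-bearing mice with control antibody, while the Ifng difference did not pass the threshold.

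Of 25 follicular helper genes tested, 16 rose and none fell, with a median difference of 0.54. The count was 13, 9, 10 and 10 without replicate 1, 2, 3 and 4. Ascl2, a factor that raises the follicle-homing receptor CXCR5, stood at -2.58 and -2.61 against 0.05 and 0.60 and rose by 2.92 ± 0.18 (adjusted p = 0.00049). Pdcd1, which encodes PD-1, went from 1.18 and 0.95 to 2.72 and 3.02. Icos, a costimulatory receptor, went from 3.64 and 3.49 to 4.66 and 4.78. These 3 genes kept their calls without any single array. Cxcr5 rose by 1.04 ± 0.16 (adjusted p = 0.011, lost without replicate 2). Bcl6 rose by 0.54 ± 0.09 (adjusted p = 0.017) on its brighter probe, a call lost without replicate 2, 3 or 4. Its second probe gave a difference of -0.04.

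Regulatory T cell genes rose in 18 of 24 cases, with none lower and a median of 0.64. Without replicates 1 to 4 in turn, 10, 6, 9 and 9 rose. Tnfrsf4, which encodes the costimulatory receptor OX40, stood at 3.70 and 3.63 against 4.84 and 4.88 and rose by 1.19 ± 0.07 (adjusted p = 0.00043). Tigit, an inhibitory receptor, rose by 1.86 ± 0.17 (adjusted p = 0.0015), and Klrg1, a receptor of differentiated effector cells, by 1.08 ± 0.11 (adjusted p = 0.0027). All 3 held without any single array, and Tnfrsf4 and Tigit are also expressed by activated helper cells. Foxp3, the factor that defines regulatory T cells, rose by 0.40 ± 0.09 (adjusted p = 0.035), a call lost on leaving out any of replicates 1 to 6.

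Th2 factors and receptors rose in 8 of 13 cases (1, 1, 1 and 6 without replicates 1 to 4). Il1rl1, the receptor of IL-33, stood at -0.14 and -0.09 against 1.49 and 1.12 and rose by 1.42 ± 0.13 (adjusted p = 0.0016). Gata3, the Th2 factor, rose by 0.39 ± 0.09 (adjusted p = 0.038, lost without replicate 1, 2, 3, 7 or 8). Th1 factors and receptors rose in 6 of 18 cases (3, 1, 2 and 5 without replicates 1 to 4), and Il12rb1, an IL-12 receptor chain, was higher by 0.80 ± 0.10 (adjusted p = 0.0046).

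Of 18 inhibitory receptors, 7 rose and 1 fell. Lag3, which binds MHC class II, stood at -0.60 and -0.95 against 1.27 and 0.80, a rise of 1.81 ± 0.17 (adjusted p = 0.0018). In the TNF family 10 of 23 genes rose and 1 fell (7, 4, 6 and 6 higher without replicates 1 to 4). Tnfrsf9, the costimulatory receptor 4-1BB, rose by 1.13 ± 0.09 (adjusted p = 0.001) and Tnfsf14, the ligand LIGHT, by 0.79 ± 0.09 (adjusted p = 0.0046). Among cytotoxic granule genes Gzmb, which encodes granzyme B, rose from 0.04 and 0.60 to 1.82 and 2.30, while Gzma, granzyme A, fell from 3.11 and 3.34 to 2.39 and 2.36. The Gzmb difference was 1.75 ± 0.24 and the Gzma difference -0.85 ± 0.10 (adjusted p = 0.007 and 0.0039), and both held without any single array.

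Genes of dividing cells followed. All 40 mitosis and spindle genes tested had differences above 0, with a median of 0.56, and 17 passed the test. That count fell to 1, 0, 0 and 9 without replicates 1 to 4 and was 26 without replicate 5 or 6, so it depended on the arrays included. Mki67, the proliferation marker, stood at 3.67 and 3.70 against 4.66 and 4.26, a rise of 0.77 ± 0.15 (adjusted p = 0.023, lost without replicate 1, 2 or 3). Of 39 replication genes 11 rose and 1 fell (1, 0, 0 and 3 higher without replicates 1 to 4). None of 34 proteasome genes and none of 20 NF-kappaB genes was called by limma, against 6.51% of all genes. At an unadjusted limma p under 0.05 were 9 and 2 of them, and 5286 of all 21172 genes. The medians of these lists were 0.17 and -0.03.

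Markers of other blood cells also differed between the groups, and their part in the T cell results was not tested. Fewer cells of a type and less RNA per cell cannot be told apart in these bulk samples. Erythroid cells, the precursors of red cells, carry haem enzymes, membrane proteins and globins. Of 35 erythroid markers 23 rose and none fell, with a median of 1.75 (1.51 with members below background set to their bound). The count was 16, 15, 10 and 25 without replicates 1 to 4. The summed scaled signal of the list was 530 and 940 against 1870 and 1230, and 1220 to 1510 on the anti-IL-6R arrays.

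The erythroid genes are given by role. All 6 erythroid factors rose (3, 2, 2 and 5 without replicates 1 to 4), among them Tal1, a master factor of blood formation, by 3.71 ± 0.46 (above background on 1 of the 2 tumour-free arrays) and Gata1, which drives the erythroid programme, by 0.79 ± 0.09 (adjusted p = 0.005 and 0.0036). Of 8 haem synthesis enzymes 6 rose (2, 0, 2 and 6). Of 12 red cell membrane genes 8 rose (7, 6, 4 and 8). Slc4a1, the anion exchanger band 3, stood at -1.46 and -0.10 against 3.84 and 2.58, a rise of 3.99 ± 0.51 (adjusted p = 0.0056). Rhd, the Rh antigen, stood at -3.13 and -1.53 against 2.88 and 1.77 and rose by 4.66 ± 0.54 (adjusted p = 0.0043). Ahsp, the chaperone of alpha-globin, rose by 4.59 ± 0.56 (adjusted p = 0.005). In these 3 genes replicate 1 was lowest and replicate 3 highest. Of 5 globin genes 2 rose, calls that depended on the arrays included. The alpha-globin genes Hba-a1 and Hba-a2 have near-identical sequences that cannot be told apart. They differed by 1.09 and 1.06, which did not pass (adjusted p = 0.069 and 0.07).

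Of 31 erythroid genes in the role groups, 23 had a promoter in the reference, some more than 1. Slc4a1 and Ahsp were not among them. The promoters found, those of genes that did not pass included, were searched on both strands for AGATAA, 1 form of the site that GATA factors bind. Other forms of the site were not counted, so a promoter without AGATAA may still hold one. The window was the 250 bases before the transcription start, from RefSeq on GRCm38.p6. AGATAA occurred in 8 of 31 promoters of the 23 matched genes (25.8%) and in 9.99% of all 32851 promoters. Rhd and Alas2, the first enzyme of haem synthesis in red cells, are shown, with the match in capitals, as a gene with a strong rise and one near the threshold. The Rhd window is chr4:134864286-134864535 on the plus strand and the Alas2 window chrX:150547167-150547416 on the plus strand.
Rhd: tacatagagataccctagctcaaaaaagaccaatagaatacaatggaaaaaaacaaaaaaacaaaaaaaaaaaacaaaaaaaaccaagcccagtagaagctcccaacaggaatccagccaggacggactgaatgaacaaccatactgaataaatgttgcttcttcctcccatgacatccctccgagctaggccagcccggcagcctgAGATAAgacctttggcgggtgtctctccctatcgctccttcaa
Alas2: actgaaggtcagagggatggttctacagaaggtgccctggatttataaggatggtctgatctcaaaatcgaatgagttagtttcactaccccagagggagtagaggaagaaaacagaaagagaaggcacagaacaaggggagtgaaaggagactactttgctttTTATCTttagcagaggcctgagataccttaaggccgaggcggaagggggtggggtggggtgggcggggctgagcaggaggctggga
A match is a description of the letters only. Alas2 stood at 0.24 and 1.34 against 3.46 and 2.07, a rise of 1.97 (adjusted p = 0.049) that was lost without replicate 1, 2, 3, 5, 7 or 8.

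Neutrophil genes are given by granule. Neutrophils load primary granules early in the marrow and secondary granules later. All 5 secondary granule genes rose (4 without each of replicates 1, 2, 3 and 4), with a median of 4.28, or 2.74 after normexp background correction and quantile normalization. Ltf, lactoferrin, stood at -3.95 and -2.95 against 1.56 and 1.45 and rose by 4.95 ± 0.34 (adjusted p = 0.00068), with 1 of the 2 tumour-free arrays above background. Camp, the antimicrobial cathelicidin, stood at -1.71 and -1.16 against 2.95 and 2.81 and rose by 4.31 ± 0.23 (adjusted p = 0.00033). Of 4 primary granule genes 2 rose: Mpo, myeloperoxidase, by 3.12 ± 0.20 and Ctsg, cathepsin G, which was below background in tumour-free mice, by at least 5.29-fold (adjusted p = 0.0005 and 0.0028). None of 8 late neutrophil genes was called by limma, against 6.51% of all genes. At an unadjusted limma p under 0.05 were 5 of them, and 5286 of all 21172 genes. S100a8, a calprotectin subunit, stood at 2.95 and 3.69 against 4.87 and 4.87 (adjusted p = 0.14), and Cxcr2, a chemokine receptor of mature neutrophils, at -2.63 and -2.13 against -1.62 and -2.52. Over the whole list of 26 markers, 10 rose and 1, Mcemp1, fell, a call lost on leaving out any of the 8 arrays. The summed signal was 190 and 236 against 267 and 266, and 180 to 313 on the anti-IL-6R arrays, the highest in tumour-free replicate 6.

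**Figure D3:**
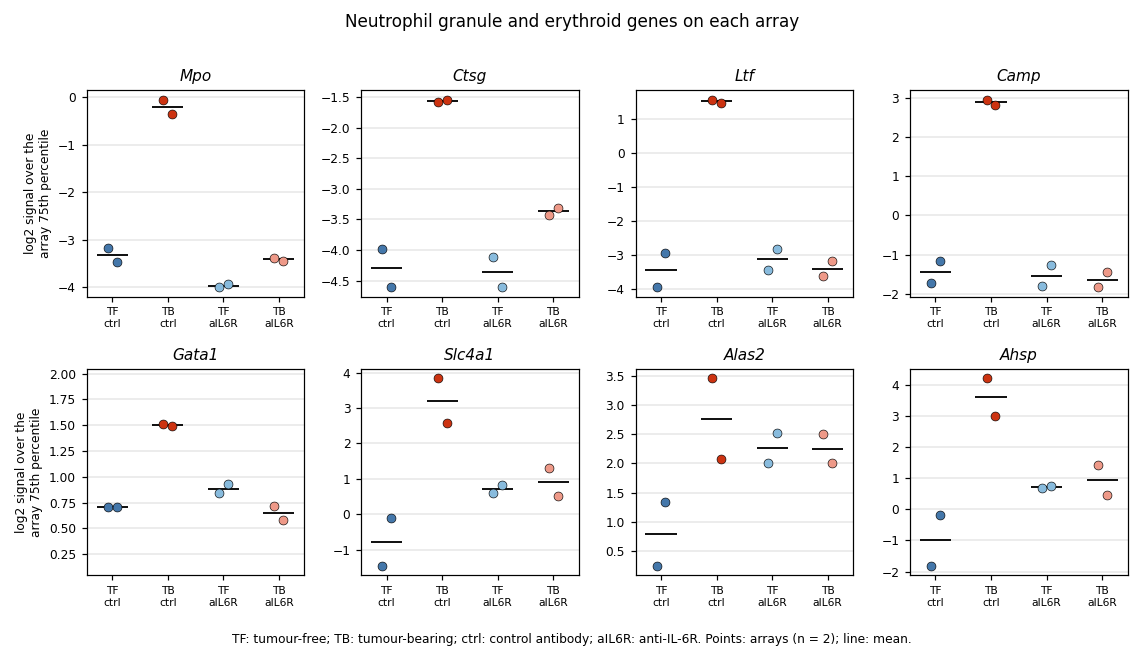
Log2 signal over the array 75th percentile for 4 neutrophil granule genes (top) and 4 erythroid genes (bottom), with 1 point per array, 2 arrays per group and a line at the mean; each panel has its own vertical scale. Mpo, Ctsg, Ltf and Camp are high on both arrays of tumour-bearing mice with control antibody. Tumour-free replicate 1 lies below replicate 2 in the Slc4a1, Alas2 and Ahsp panels, but not in the Gata1 panel.

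Among 186 features that the array describes as immunoglobulin segments, 131 rose and 1 fell, with a median of 1.51. This list was made after values were seen. It held 83, 69, 81 and 94 higher features without replicates 1 to 4. Immunoglobulin heavy constant regions set the antibody class. The gamma 1 region stood at -3.85 and -4.76 in tumour-free mice, not well above background, and at 2.20 and 2.62 in tumour-bearing mice, at least 82.8-fold higher (adjusted p = 3.9e-05). Gamma 2B stood at -0.82 and -0.98 against 4.64 and 4.65, a rise of 5.54 ± 0.15 (adjusted p = 3.7e-06). Gamma 2C stood at 0.39 and 0.08 against 6.00 and 6.10, a rise of 5.81 ± 0.18 (adjusted p = 5.8e-06). These 3 calls held without any single array. The epsilon region was at least 6.02-fold higher (adjusted p = 0.001), and gamma 3 rose by 3.79 ± 0.58 (adjusted p = 0.011, lost without replicate 3). A further probe, assigned to the gamma 3 gene Ighg3, rose by 3.29 ± 0.38 (adjusted p = 0.0042, held without any single array). Alpha, also a switched class, stood at 5.55 and 5.54 against 7.17 and 5.74, a difference of 0.91 that did not pass (adjusted p = 0.22). Of the unswitched classes, mu differed by 0.43 and -0.27 on 2 features, which did not pass (adjusted p = 0.12 and 0.097). Delta fell by 0.88 ± 0.15 (adjusted p = 0.016, lost without replicate 2 or 4) on 1 feature and differed by -0.57 on the other (adjusted p = 0.1). One probe may read several segments, since their sequences are alike.

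Plasma cell genes moved with them, while B cell genes went the other way. Of 17 plasma cell markers 7 rose (4, 2, 2 and 6 without replicates 1 to 4), with a summed signal of 133 and 126 against 171 and 163. Derl3, an endoplasmic reticulum factor of secretory cells, stood at -1.38 and -1.39 against 0.22 and 0.20, and Mzb1, a chaperone of antibody-making cells, at 0.44 and 0.80 against 1.87 and 1.82 (adjusted p = 0.001 and 0.0053). Of 24 B cell markers 10 fell and 2, Cxcr5 and Cd24a, rose, with a median of -0.68. The lower count was 9, 0, 11 and 1 without replicates 1 to 4. Cr2, the complement receptor, stood at 2.12 and 2.68 against 1.48 and 1.12 (adjusted p = 0.014, lost without replicate 2 or 4). Macrophage markers had 1 higher (Marco, a scavenger receptor) and none lower of 33, but 11 lower without replicate 3 and 4 higher without replicate 4, and Csf1r, a macrophage receptor, stood at 5.55, 5.72, 5.60 and 4.63 in replicates 1 to 4.

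**Figure D4:**
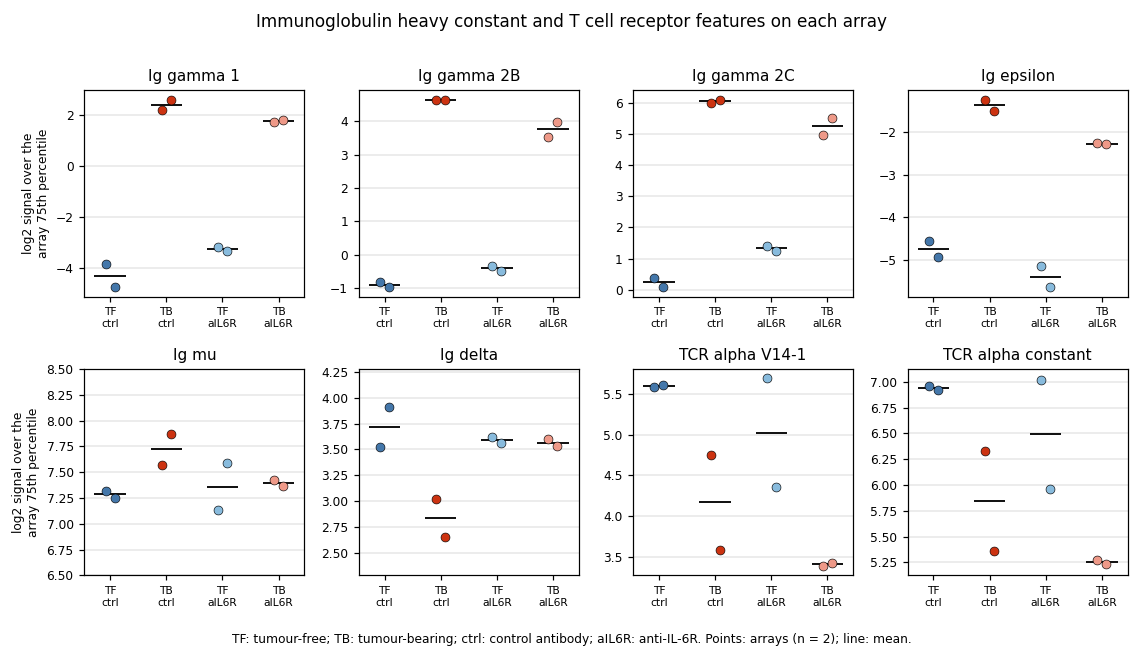
Log2 signal over the array 75th percentile for 6 immunoglobulin heavy constant features and 2 T cell receptor features, with 1 point per array, 2 arrays per group and a line at the mean; each panel has its own vertical scale. The gamma and epsilon features are high in tumour-bearing mice, the mu feature is near level, and the 2 receptor features agree closely within the tumour-free control antibody and tumour-bearing anti-IL-6R groups but not within the other groups.

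T cell receptor features were read because the transferred cells carry a transgenic receptor. OT-II, a commonly used OVA-specific receptor, pairs an alpha chain of the Trav14 family with a beta chain of the Trbv12 family, but the labels name no line. Of 105 receptor features, chosen from descriptions after values were seen, 1 rose (alpha variable 11D, lost without replicate 1, 2, 3 or 4) and none fell, although 6 fell without replicate 5 or without replicate 6. The Trav14 probes read related segments, and 2 of them share a run of bases, shown in capitals. They lie on mm9 at chr14:54174142-54174201 and chr14:54260816-54260875.
Trav14-1: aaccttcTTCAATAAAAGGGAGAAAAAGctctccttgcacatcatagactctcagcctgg
Trav14-2: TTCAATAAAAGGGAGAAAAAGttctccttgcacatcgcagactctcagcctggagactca
The Trav14-1 probe stood at 5.58 and 5.61 against 4.75 and 3.59, a difference of -1.43 ± 0.44 that did not pass (adjusted p = 0.095). The Trav14-2 probe stood at 5.15, 5.16, 4.30 and 3.04 in replicates 1 to 4 (adjusted p = 0.096). The alpha constant feature stood at 6.96, 6.92, 6.33 and 5.36 (adjusted p = 0.11). On these 3 features replicate 4 was the lowest of the 4. The Trav14D-3-DV8 and Trav14N-3 probes differed by -1.32 and -1.27, which did not pass (adjusted p = 0.096 and 0.099). With anti-IL-6R, Trav14-1, Trav14-2, Trav14D-3-DV8 and Trav14N-3 differed by -1.62, -1.63, -1.45 and -1.36. None of these passed (adjusted p = 0.5, 0.54, 0.53 and 0.55). Of the Trbv12 family, Trbv12-2 stood at 2.43 and 2.6 against 1.90 and 1.53 (adjusted p = 0.093) and Trbv12-1 at a difference of 0.46 (adjusted p = 0.13). The beta constant region 1 feature stood at 8.03, 7.83, 7.86 and 8.02 in replicates 1 to 4, a difference of 0.02 ± 0.09.

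Some stress-response genes were lower in tumour-bearing mice. Of 28 heat shock chaperones 4 fell and none rose (4, 0, 3 and 3 lower without replicates 1 to 4). Of 14 AP-1 factors 4 fell and 2 rose (1, 1, 2 and 3 lower without those replicates). Of 28 Egr, Nr4a and Klf factors 4 fell and 4 rose (2, 1, 2 and 3 lower, and 2, 0, 1 and 1 higher). Hspa1a and Hspa1b, paralogous heat shock proteins whose probes may read each other, stood at 4.36 and 4.58 against 2.48 and 0.90, and at 3.73 and 3.97 against 1.80 and 0.42. They fell by 2.78 ± 0.42 and 2.74 ± 0.39 (adjusted p = 0.01 and 0.0083), calls lost without replicate 2. Their promoters, from RefSeq on GRCm38.p6, matched at 247 of 250 bases. Both hold GAANNTTC, paired repeats of the heat shock element, 104 bases before the start, as do 6.69% of all promoters. This palindrome reads the same on both strands. The Hspa1a window, chr17:34972157-34972406 on the minus strand, is shown because the pair shares it.
Hspa1a: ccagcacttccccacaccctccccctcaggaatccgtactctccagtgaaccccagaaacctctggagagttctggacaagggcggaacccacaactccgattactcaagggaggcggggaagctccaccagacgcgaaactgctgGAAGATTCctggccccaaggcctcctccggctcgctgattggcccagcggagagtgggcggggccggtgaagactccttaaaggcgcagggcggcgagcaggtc
Of 10 genes known to respond to handling of cells, 5 fell and none rose (3, 1, 4 and 4 without replicates 1 to 4). The 5 that fell, Fos, Jun, Atf3, Hspa1a and Hspa1b, were already counted in the heat shock and AP-1 lists. Jun stood at 6.01 and 6.14 against 5.22 and 5.14 and fell by 0.90 ± 0.11 (adjusted p = 0.0046). Atf3, a stress factor, stood at 0.32 and 0.46 against -1.79 and -2.29 (adjusted p = 0.016, lost without replicate 1, 2 or 4). How the samples were handled is not compared here, and its part in these results was not tested.

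The largest fall among genes measured on all 4 arrays was read from a probe assigned to Firre, a long non-coding RNA of the X chromosome. The array describes this brighter probe only as an unclassifiable cDNA from embryo head, and the second probe as Firre. The brighter probe stood at 0.28 and 0.40 against -2.91 and -3.67, a difference of -3.63 ± 0.29 (adjusted p = 0.001). The second probe stood at -2.81, -2.58, -2.77 and -2.87, a difference of -0.13. The probes disagree, since replicates 1 and 2 are high on 1 probe only. The probes lie on mm9 at chrX:47911457-47911516 and chrX:47916405-47916464, on the minus strand.
Firre, brighter probe: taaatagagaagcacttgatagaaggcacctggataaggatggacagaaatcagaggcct
Firre, second probe: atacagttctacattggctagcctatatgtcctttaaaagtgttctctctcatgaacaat
Krt5, a keratin of skin cells, was also lower, at -0.16 and -3.24 against -5.38 and -6.35, at least 6.44-fold lower (adjusted p = 0.031, lost without replicate 3 or 4), and the tumour-free arrays differed from each other.

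**Figure D5:**
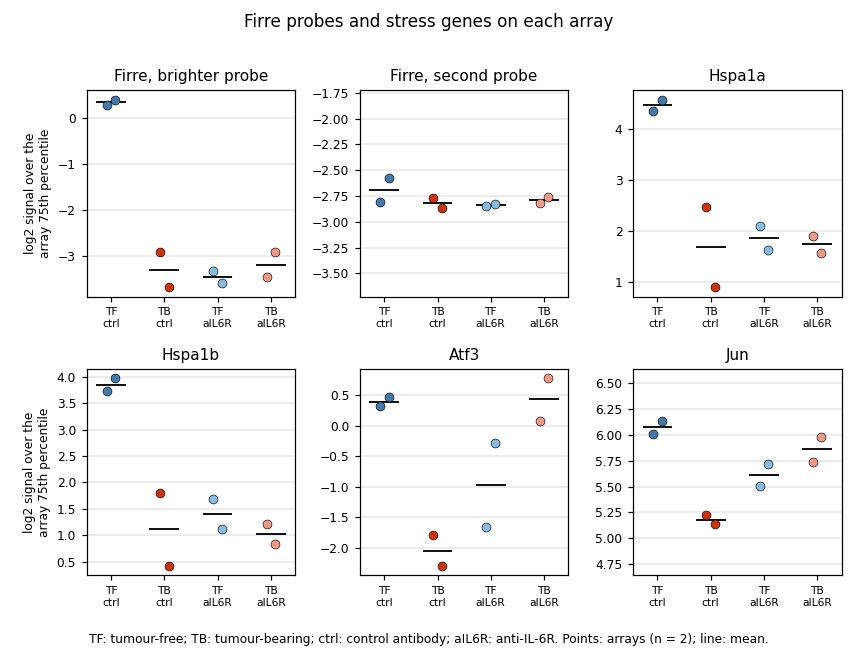
Log2 signal over the array 75th percentile for 2 Firre probes and for Hspa1a, Hspa1b, Atf3 and Jun, with 1 point per array, 2 arrays per group and a line at the mean; each panel has its own vertical scale. The brighter Firre probe and both heat shock genes are high in tumour-free mice with control antibody only, and the second Firre probe is level.

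Ly49 receptors, MHC class I receptors of NK cells and some T cells, fell in 8 of 11 cases and none rose, with a median of -1.12. The lower count was 6, 4, 7 and 5 without replicates 1 to 4, and 1 rose without replicate 4. The family was listed after values were seen. Klra4 stood at -0.52 and -0.33 against -1.71 and -2.0, and Klra8 at -0.70 and -0.53 against -1.85 and -1.72 (adjusted p = 0.004 for each). A dimmer probe of Klra4 gave -1.34 and did not pass. Members share sequence. Klrb1c, the receptor NK1.1, instead rose by 0.87 ± 0.18 (adjusted p = 0.032, lost without replicate 2, 3 or 4). Ncr1, a marker of NK cells, differed by -0.69, which did not pass (adjusted p = 0.17).

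Among chemokine ligands 4 of 22 rose (Ccl1, Ccl7, Ccl8 and Ccl12) and 2 fell (Ccl3 and Cxcl9). A second probe of Ccl1 gave -0.03 and did not pass. The Ccl1 call was lost without replicate 2, and the Ccl12 call without replicate 3 or 4. Ccl8, a monocyte attractant, stood at -1.45 and -1.02 against 1.99 and 2.15 and rose by 3.30 ± 0.28 (adjusted p = 0.0014). Ccl7 was below background in tumour-free mice and at least 2.12-fold higher (adjusted p = 0.0027). Ccl3, an attractant made by activated cells, fell from 0.87 and 0.68 to -0.50 and -0.57, a difference of -1.31 ± 0.17 (adjusted p = 0.0058).

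With anti-IL-6R, 44 genes (0.208%) were called between tumour-bearing and tumour-free mice, all higher. Of these, 41 were also called with control antibody, which is 93.2% of the 44 and 2.97% of the 1379, and 31 of the 41 were immunoglobulin features. The 934 genes higher with control antibody had a median of 0.05 in the anti-IL-6R arrays, and the 445 lower genes 0.14, against -0.06 over all genes. The tumour difference itself differed between the antibodies for 7 genes (0.0331%). An unadjusted limma p under 0.05 for this difference between antibodies was found for 5308 of the 21172 genes. The count of 7 therefore does not show that the tumour differences of the other genes were alike.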

How the data were processed

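The 8 samples, 2 per group, were each hybridised to a one-colour array. The deposited scanner files hold intensity values that the authors extracted. The submitters' processing notes name Agilent Feature Extraction, version 10.10.1.1. The deposited value table holds log2 values, which equal the log2 processed signal minus the array's 75th percentile. These signals were recomputed from the scanner files, with control and outlier spots left out. Depth is not defined for arrays, and only 2 arrays per group limit the precision. A probe was kept if both arrays of either control antibody group had it well above background (31552 probes), and each gene was read from its brightest kept probe (21172 genes). Names came from RefSeq tables by accession or symbol where they matched. Probe positions are on mm9, per the file headers.

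All 8 arrays were fitted as 4 group means in limma 3.58.1 (R 4.3.3) with an intensity trend (4 residual and 4.17 prior degrees of freedom). Tests were two-sided and adjusted by the Benjamini-Hochberg method. The fit was tested on simulated data. Tables and plots were made in Python 3.11.15 (pandas 2.3.3, matplotlib 3.10.9). Where a gene was below background on both arrays of a group, the dim signals were raised to the lowest well-above-background signal and the change is given as "at least". Named genes were up to 15 per direction with the largest called difference of at least 2-fold, measured on all 4 arrays, up to 10 per direction below background in 1 group, and, per list, up to 4 called members per direction with the smallest p plus defining members. The members and lists were chosen with earlier results of these data known. Tal1, Alas2, the globins, S100a8, Cxcr2, the role groups and the gene families fall outside that rule and were chosen after values were seen. Alternatives changed the background correction, scaling, filter, probe rule and variance model, used only the 4 control antibody arrays, and left out each of the 8 arrays in turn. Some genes are not reported here.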

Additional observations from a re-analysis of the deposited data

Results flagged for a closer look

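For 7 genes the tumour difference under control antibody differed from that under anti-IL-6R in the interaction test of limma. The differences between the 2 tumour effects were 4.42 for Camp, 5.23 for Ltf, 5.34 for Ngp and 2.56 for Mpo, all neutrophil granule genes (adjusted p = 0.017, 0.026, 0.019 and 0.044). With anti-IL-6R the tumour differences of these genes were -0.11, -0.28, -1.06 and 0.56. Ngp was not well above background on replicates 1, 5, 7 and 8, Mpo on 5 and 6, and Ltf and Apol11b on 1, so their values there, and the differences that use them, are not exact. Tox2, a factor of follicular helper cells, gave 1.51, and Apol11b, an apolipoprotein L gene, 4.51 (adjusted p = 0.04 and 0.044). Another, dimmer probe of Tox2 gave a tumour difference of -0.36 under control antibody. Firre gave -3.90 (adjusted p = 0.04), on the probe that the array does not describe as Firre and that its second probe does not match. Camp kept this call without any single array. Mpo lost it without replicate 2, 3, 5 or 8, Ltf without 3 or 8, Tox2 without 2, 5 or 8, Ngp without 8, Apol11b without 3, 5 or 8, and Firre without 2 or 8.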

How the results depend on the processing

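The 1379 called genes were 570 with no filter on dim probes (426 higher, 144 lower), 667 without the intensity trend (494 higher, 173 lower) and 766 with array weights (554 higher, 212 lower). With only the 4 control antibody arrays the lower count was 752, and 54.5% of calls were higher instead of 67.7%. Leaving out 1 array at a time gave 317 to 1295 called genes, 231 to 845 higher and 86 to 485 lower. The share of higher calls was 52.8% without replicate 1, 57.2% without replicate 3 and 79.0% without replicate 4. The 7 genes whose tumour difference depended on the antibody became 4 with quantile normalization, 28 with median centring, 3 with the mean of probes, 1 when all 4 arrays had to be above background, and 0 without the filter or without the trend. Leaving out 1 array gave 3 to 469. Hspa4l, at -0.78 on its brightest probe, reversed to 0.05 with the mean of its probes. Normexp background correction with quantile normalization moved 44 of 199 named genes by over 1.5 times, among them Il21 to 2.4, Ltf to 3.73, Mpo to 2.08 and Firre to -2.39. The mean of probes moved 8, among them Il21 to 1.88 and Firre to -1.88. Of 186 called genes that the naming rule gave, 61 kept their call without any single array, and 97 kept it under every other alternative. The cause of these changes was not tested. No paired analysis was possible because the groups compared share no replicate number in the labels.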

Other observations

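Genes not named above also differed. Vdr, Il1r2 and the kallikrein and S100 genes below were chosen here after their values were seen. Il1r2 belongs to the regulatory T cell list counted above. Slc38a5 and Asns came from the naming rule. Vdr, the vitamin D receptor, stood at -3.52 and -3.59 in replicates 1 and 2 against -1.02 and -1.41 in 3 and 4, a rise of 2.34 ± 0.22 (adjusted p = 0.0016). Il1r2, the decoy receptor of IL-1, stood at -0.92 and -0.94 against 0.51 and 0.94 and rose by 1.66 ± 0.18 (adjusted p = 0.0036). Slc38a5, an amino acid transporter, rose by 4.63 ± 0.60 (above background on 1 tumour-free array) and Asns, asparagine synthetase, by 1.5 ± 0.14 (adjusted p = 0.0059 and 0.0016).

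Glandular kallikrein genes, proteases that share sequence, rose in 7 of 12 cases, a count of 0, 0, 1 and 10 without replicates 1 to 4. The S100 genes S100a4, S100a6, S100a10 and S100a11 rose together, in 2, 0, 0 and 3 cases without those replicates. S100a4 stood at 6.66 and 6.59 against 7.54 and 7.25 (adjusted p = 0.011, lost without replicate 2 or 3).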
